A study of Mus musculus with 6 samples.

Results

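Bulk RNA was measured in orthotopic tumors that grew from ovarian cancer cells lacking *Trp53* and *Brca1*, and 10 genes tied to those 2 losses were followed through every tumor. They are *Trp53* and *Brca1* themselves, *Brca2* and *Bard1* as partners of *Brca1* in homologous recombination, and 6 genes that p53 is known to activate, *Cdkn1a*, *Mdm2*, *Ccng1*, *Bax*, *Bbc3* and *Trp53inp1*. The genes were chosen by symbol and not by their values, but with earlier results of these data known. All 10 were found among the 20076 genes of the table, and all 10 passed the filter that kept 19667 genes for testing. None of the 10 differed between tumors of wild-type and *Tgm2* knockout hosts past the limits used, and for 7 of them the SD between tumors of 1 group was larger than the difference between the groups on the log2 scale.

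The libraries were 3 tumors of wild-type (WT) C57BL/6 mice and 3 of *Tgm2* knockout mice, aged 6 to 10 weeks, that received ID8 Trp53-/- Brca1-/- cells in the bursa around both ovaries. ID8 is a line of mouse ovarian surface epithelial cells that grows in C57BL/6 mice, and *Trp53* and *Brca1* were disrupted in it by CRISPR-Cas9, so the cancer cells of both groups lacked them. The knockout of *Tgm2*, the gene of transglutaminase 2, was in the host alone, and primary tumors were collected 6 weeks after injection. The labels give each library a genotype and a replicate number and do not state whether the replicates came from separate mice, so p-values measure the spread between these tumors. The deposited values were treated as normalized counts, that is, read counts scaled for the depth of each library, and the steps between low values corresponded to 33.4M to 37.1M reads per tumor. Values of single tumors are given in the order of the replicate numbers 1, 2 and 3 of each group.

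The protein p53 is a transcription factor that is stabilized when DNA is damaged and that raises the transcription of genes that halt the cell cycle, repair DNA or start apoptosis. Mdm2, itself made from a p53 target, marks p53 for degradation, which closes a feedback loop. Brca1 acts with Bard1 as a ubiquitin ligase and directs double-strand breaks to homologous recombination, in which Brca2 also acts. Joint loss of p53 function and of Brca1 is known from high-grade serous ovarian cancer, which this cell line was made to model. A tumor also holds host cells with both genes intact, and bulk RNA does not tell cancer cell transcripts from those of the host.

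Of the 10 genes, 2 carried in a promoter window a match to the full p53 response element, which is made of a pair of 10-letter decamers. Promoter sequence came from RefSeq (GRCm38.p6), as windows from 250 bases before to 50 bases after each annotated start, and 12 windows were found for 9 of the 10 genes. Both strands were searched for the p53 consensus, whose decamer reads alike on both, with at most 2 mismatches of 20 allowed for the full site. Such a match stood in 0.798% of 32851 windows, and a single decamer with no mismatch stood in 8.36%. The 2 stretches with a full match are shown because they carry the element through which p53 is known to act, with the matched letters in capitals. In *Cdkn1a* the stretch is chr17:29090729-29090978 on the plus strand, upstream of the distal start, and the match had 1 mismatch and lay from 51 to 32 bases before that start. In *Ccng1* the stretch is chr11:40755287-40755536 on the minus strand, reaching past the gene start of GENCODE M21, and the match had 1 mismatch and lay from 195 to 176 bases before the RefSeq start.
Cdkn1a: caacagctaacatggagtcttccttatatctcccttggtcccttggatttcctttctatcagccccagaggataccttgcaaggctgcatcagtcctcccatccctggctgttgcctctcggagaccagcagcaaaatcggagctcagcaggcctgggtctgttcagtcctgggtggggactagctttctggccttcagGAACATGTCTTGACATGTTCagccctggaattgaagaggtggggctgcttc
Ccng1: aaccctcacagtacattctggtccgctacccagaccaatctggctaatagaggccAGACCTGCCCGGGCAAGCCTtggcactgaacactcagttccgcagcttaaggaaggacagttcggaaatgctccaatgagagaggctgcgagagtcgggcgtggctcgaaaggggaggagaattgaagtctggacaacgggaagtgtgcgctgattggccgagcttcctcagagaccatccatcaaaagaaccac
Single decamers with no mismatch also stood in the windows of *Trp53*, *Mdm2* and *Bax*. A match in sequence is a description and not a measured binding site, and none of the other windows can be read as lacking p53 control, since only these letters in these windows were searched. The repressive cell cycle element CHR, searched as TTTGAA on both strands, stood in the windows of *Bard1* and *Bax* and in 17.9% of all windows.

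The *Tgm2* gene was read first as a check of the labels. Its normalized counts were 14978, 12155 and 13180 in the WT group against 5853, 6071 and 8157 in the knockout group. The knockout values were all under the lowest WT value, in the direction of the labels, with a log2 fold change of -1.02 (SE 0.22, adjusted p = 0.391 from limma). *Tgm2* RNA in the knockout tumors can come from the injected cells, which have the gene. Exon bases of *Tgm2* are shared with *Rprd1b* and *Gm20412* on the opposite strand. The samples were also set against epithelial and mesothelial markers, which ID8 cells are known to express, as do the surface cells of the ovary and the mesothelium of the host, so that these markers do not tell tumor from host tissue. *Wt1*, *Krt8*, *Krt18*, *Krt19* and *Msln* were present in every tumor, with *Wt1*, the most abundant of them, at 13131 to 20641 normalized counts.

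In each group 1 tumor stood apart in the markers described here. Other tumors differed in other features, such as knockout tumor 3 with 1480 genes at 0 against 473 to 977 in the others. WT tumor 3 had 8047 normalized counts of *Epcam*, an epithelial adhesion gene, against 90.5 to 1307 in the other tumors, and 1905 of *Pax8*, a transcription factor of oviductal epithelium, against 40.9 to 437. Summed over 13 epithelial and mesothelial markers, none of them at 0, WT tumor 3 had 85843 normalized counts, close to the 85867 of WT tumor 2, and the others had 61570.2 to 73495. Mitochondrial genes took 7.0% of all values in WT tumor 3 and 1.79% to 3.59% in the others. Its 20 proliferation genes, described further on, were the lowest of all tumors. Knockout tumor 1 had the highest level of ovarian somatic and germ cell genes. It held 1282 normalized counts of *Foxl2*, a granulosa cell factor, against 23.7 to 219 in the others, and 596 of *Zp2*, a protein of the egg coat, against 0 to 13.3. Summed over 9 granulosa and theca markers, of which *Star* was the most abundant, the level was 47134 normalized counts in knockout tumor 1 and 9679 to 20657 in the others, and *Fshr* and *Cyp19a1* were at 0 in at least 1 of the others. The 7 oocyte markers in the table summed to 1987 normalized counts in knockout tumor 1 and 42.9 to 130.3 in the others. Genes such as *Epcam*, *Pax8* and *Foxl2* were named after their values were seen. Because of these tumors, the log2 fold change of each of the 10 genes is also given without them.

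*Trp53* is a plus-strand gene of chromosome 11 (69580359 to 69591873 in GRCm38). Its normalized counts were 1301, 1006 and 2290.05 in the WT group against 1809, 996 and 1083 in the knockout group. The 2 tumors that stood apart, WT tumor 3 and knockout tumor 1, were the highest of their groups, the other 4 lay close together, and the groups overlapped. The means were 1532 ± 673 for WT and 1296 ± 446.5 for knockout (SD, n = 3 per group). The log2 fold change was -0.21 (SE 0.35, 95% interval -1.01 to 0.60, adjusted p = 0.945 from limma), and a two-sided exact permutation test gave p = 0.6, where 3 tumors against 3 cannot give less than 0.1. The value was 0.13 without WT tumor 3, -0.47 without knockout tumor 1 and -0.14 without both. *Trp53* RNA was thus present in every tumor, although the injected cells had been edited to lack the gene. These values do not check the disruption, because a level summed over the whole gene does not read the edited site, because an edited gene can still be transcribed, and because host cells carry the intact gene. In bulk RNA, fewer cells of a type and less RNA per cell cannot be told apart.

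*Brca1*, on chromosome 11 from 101488764 to 101551955 on the minus strand, had 427, 342 and 215 normalized counts in the WT group against 454, 232 and 492 in the knockout group. Each group had 1 low tumor, WT tumor 3 and knockout tumor 2, and the groups overlapped. The means were 328 ± 107 and 393 ± 140.3 (SD, n = 3 per group), with a log2 fold change of 0.24 (SE 0.40, 95% interval -0.67 to 1.15, adjusted p = 0.943 from limma, exact permutation p = 0.5). Without WT tumor 3 the value was -0.03, and without knockout tumor 1 it was 0.10. Leaving out both gave -0.17, so that the direction of the *Brca1* difference rested on which tumors were kept. WT tumor 3, the highest tumor for *Trp53*, was thus the lowest for *Brca1*.

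**Figure D1:**
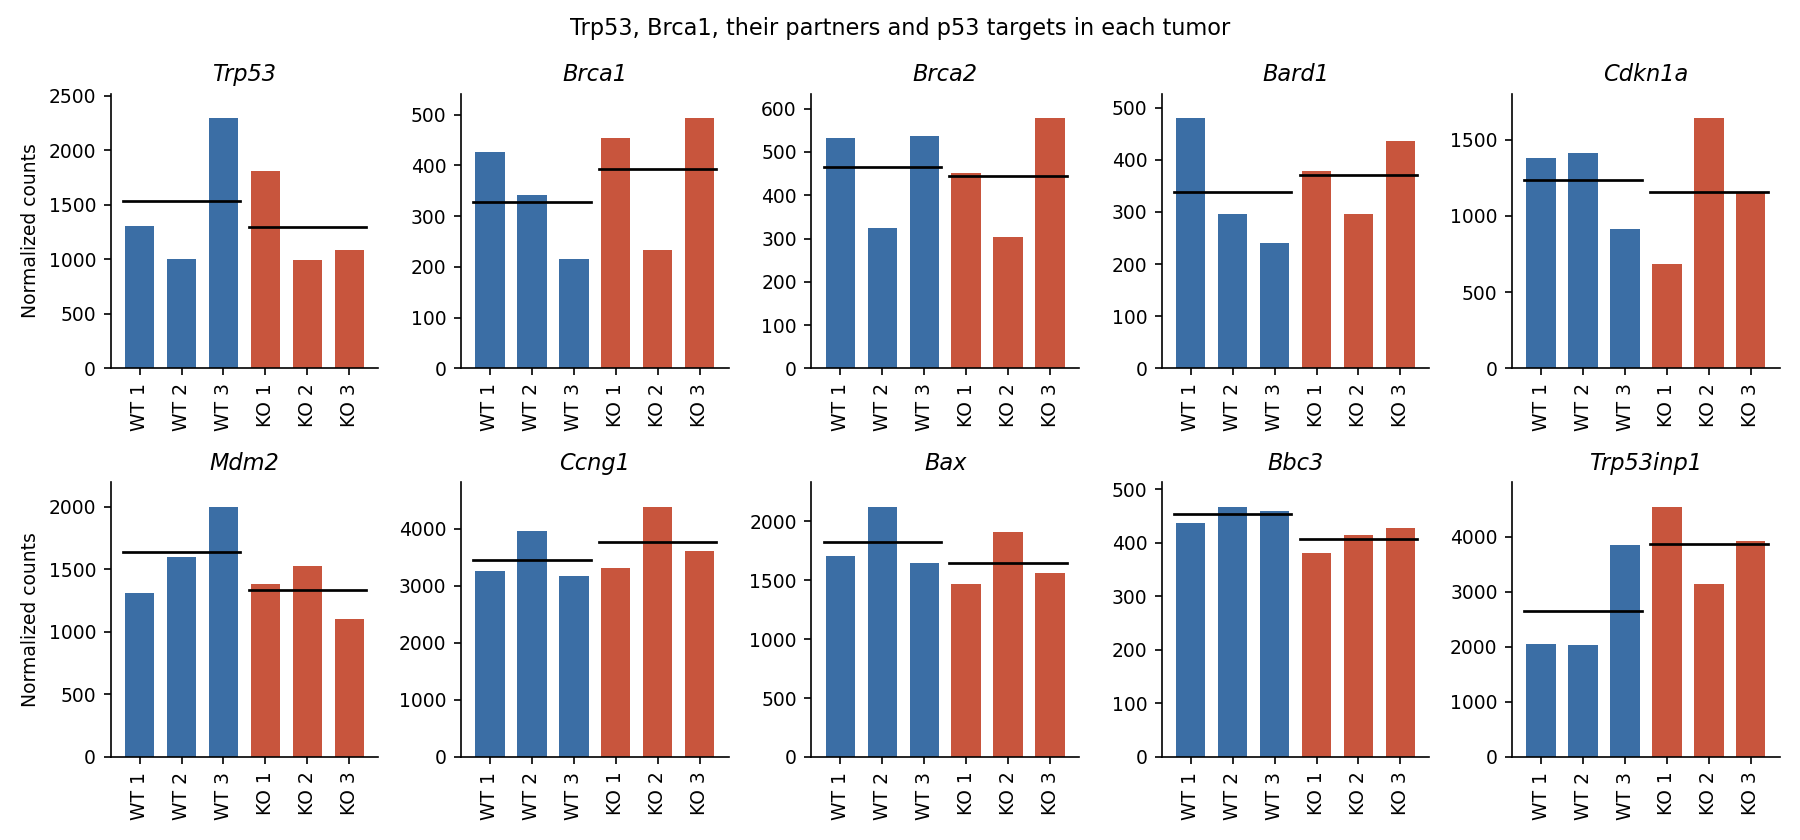
Normalized counts (vertical axes, each from 0) of the 10 genes in tumors 1, 2 and 3 of the WT and the *Tgm2* knockout (KO) group, 1 bar per tumor, with a line at each group mean. *Bbc3* is the gene whose groups do not overlap, and *Trp53* shows WT tumor 3 and knockout tumor 1 above the other tumors.

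The highest tumor had 2.29 times the lowest for *Brca1*, and the 2 recombination partners varied nearly as much, 1.99 times for *Bard1* and 1.90 times for *Brca2*. *Bard1*, the obligate partner of Brca1 in its ubiquitin ligase, lies on chromosome 1 from 71027498 to 71103146 on the minus strand and had 479, 295 and 241 normalized counts in the WT group against 378, 295 and 436 in the knockout group. As for *Brca1*, WT tumor 3 was the lowest, and WT tumor 1 and knockout tumor 3 were the highest of their groups. *Bard1* had means of 338.5 ± 125 for WT and 370.0 ± 70.8 for knockout (SD, n = 3 per group) and a log2 fold change of 0.17 (SE 0.34, 95% interval -0.61 to 0.95, adjusted p = 0.953 from limma, exact permutation p = 0.7). The value was -0.04 without WT tumor 3 and 0.15 without knockout tumor 1.
*Brca2*, on chromosome 5 from 150522630 to 150570329 on the plus strand, had 533, 325 and 538 normalized counts in the WT group against 452, 304 and 577 in the knockout group. Here WT tumor 3 was the highest WT tumor, and tumor 2 was the lowest of each group. Between groups *Brca2* had a log2 fold change of -0.08 (SE 0.34, 95% interval -0.85 to 0.70, adjusted p = 0.980 from limma, exact permutation p = 0.9), with means of 465 ± 122 and 444.5 ± 137 (SD, n = 3 per group). The value for *Brca2* was 0.05 without WT tumor 3 and -0.11 without knockout tumor 1. Some exon bases of *Brca2* are shared with the antisense gene *Gm42529*, and the sources used here do not say whether strand was used in counting.

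*Brca1*, *Brca2* and *Bard1* are known to be transcribed mainly in cells that replicate DNA, so they were set against 20 proliferation genes such as *Top2a* and *Mcm6*, the most abundant of the list, which act on DNA topology and in the replicative helicase. The mean log2 level of these genes was 11.31, 11.20 and 9.88 in the WT group against 10.86, 10.92 and 11.40 in the knockout group. WT tumor 3 was far below the others, and the groups overlapped. Over the 6 tumors, levels of *Brca1* and *Bard1* followed the proliferation genes with Pearson's r of 0.74 and 0.77 and Spearman's rho of 0.66 and 0.71, as a description over tumors that share 1 table and 1 scaling. Without WT tumor 3 and knockout tumor 3, the 2 farthest from the median of the proliferation genes, r was 0.27 for *Brca1* and 0.41 for *Bard1* over 4 tumors, so that the relation rested on those tumors. For *Brca2* r was -0.12 and rho 0.26, and r over the same 4 tumors was 0.33, so that no difference between *Brca2* and *Brca1* in this relation can be read from these tumors. *Trp53* and *Mdm2* ran against it, with r of -0.80 and -0.85 and rho of -0.49 and -0.77, and r without the same 2 tumors was -0.34 and -0.15.
Taken relative to the proliferation genes within each tumor, the knockout minus WT difference on the log2 scale was -0.02 for *Brca1* (exact permutation p = 1.0), -0.34 for *Brca2* (exact permutation p = 0.9) and -0.09 for *Bard1* (exact permutation p = 0.9), each with 3 tumors per group. All 3 of these relative differences turned positive without WT tumor 3, to 0.16 for *Brca1*, 0.24 for *Brca2* and 0.15 for *Bard1*.

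**Figure D2:**
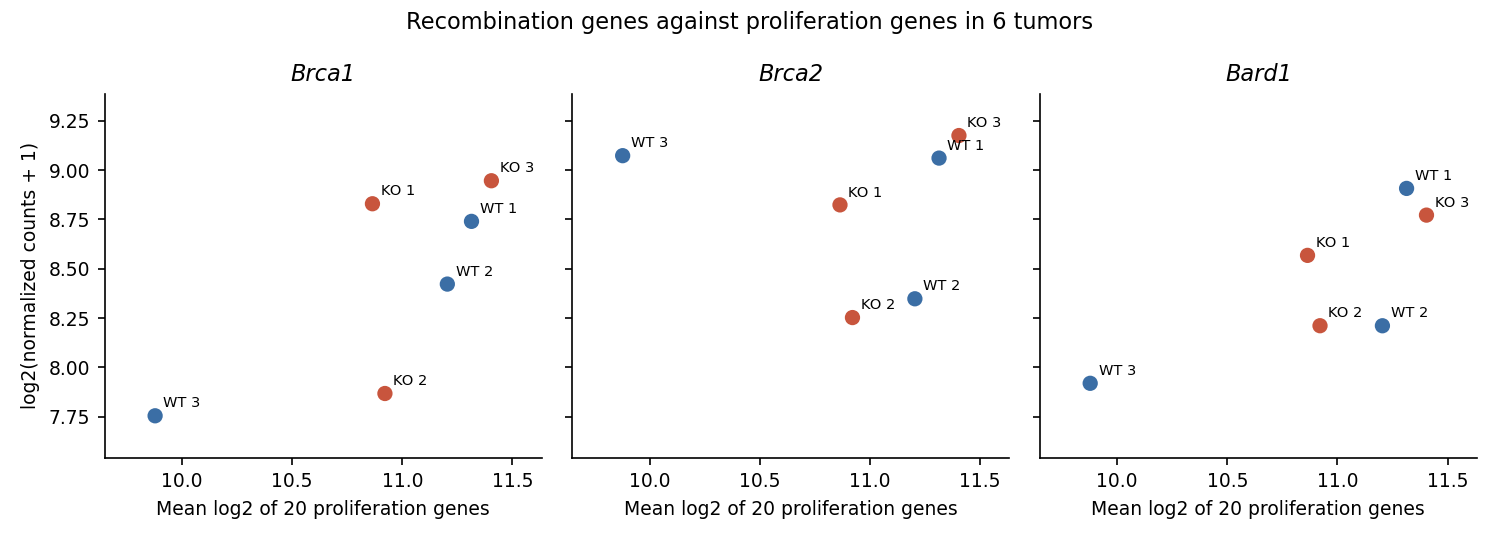
Level of *Brca1*, *Brca2* and *Bard1* (vertical axis, log2 of normalized counts plus 1) against the mean log2 level of 20 proliferation genes (horizontal axis), 1 point per tumor, WT in blue and knockout (KO) in red. WT tumor 3 sits alone at the low end at 9.88, where *Brca1* and *Bard1* are lowest and *Brca2* is not.

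Among the p53 targets, *Cdkn1a* encodes p21, the inhibitor of cyclin-dependent kinases through which p53 halts the cell cycle, and *Ccng1* encodes cyclin G1. These are the 2 genes whose promoter stretches are printed above. *Cdkn1a*, on chromosome 17 from 29090976 to 29100727 on the plus strand, had 1381, 1411 and 911 normalized counts in the WT group against 685, 1638 and 1148 in the knockout group. Both tumors that stood apart, WT tumor 3 and knockout tumor 1, were the lowest of their groups for *Cdkn1a*, where they had been the highest for *Trp53*, and the groups overlapped. The means were 1234 ± 280.3 and 1157 ± 477 (SD, n = 3 per group), and *Cdkn1a* had a log2 fold change of -0.15 (SE 0.34, 95% interval -0.93 to 0.62, adjusted p = 0.957 from limma, exact permutation p = 0.7). It was 0.18 without knockout tumor 1, -0.36 without WT tumor 3 and -0.03 without both. With the mean of the white adipocyte markers as a covariate it was -1.47, and with that of the leukocyte markers -0.68 (adjusted p = 0.478 and 0.864 from limma). The adipocyte mean did not overlap between the groups, at 9.36 to 10.10 in WT and 10.58 to 12.22 in knockout tumors on the log2 scale, so the adipocyte level and the genotype cannot be told apart in that fit. Exon bases of *Cdkn1a* are shared with another gene model on the opposite strand.
*Ccng1*, on chromosome 11 from 40748552 to 40755311 on the minus strand, had 3252, 3957 and 3169 normalized counts in the WT group against 3319, 4379.9 and 3616 in the knockout group. Tumor 2 was the highest in each group, the remaining tumors lay close together, and the groups overlapped. The highest tumor had 1.38 times the lowest, the second smallest spread of the 10 genes. For *Ccng1* the means were 3459 ± 433 and 3771 ± 547.5 (SD, n = 3 per group), with a log2 fold change of 0.12 (SE 0.20, 95% interval -0.33 to 0.57, adjusted p = 0.941 from limma, exact permutation p = 0.5), which was 0.06 without WT tumor 3 and 0.21 without knockout tumor 1.

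*Mdm2*, on chromosome 10 from 117688875 to 117710758 on the minus strand, encodes the ligase that degrades p53 and is itself a p53 target. Its normalized counts were 1312, 1597 and 1998 in the WT group against 1380.1, 1526 and 1104 in the knockout group. WT tumor 3 was the highest of all and knockout tumor 3 the lowest, and WT tumor 1 lay below knockout tumors 1 and 2. With means of 1636 ± 344.5 and 1337 ± 214 (SD, n = 3 per group), the log2 fold change of *Mdm2* was -0.28 (SE 0.23, 95% interval -0.81 to 0.24, adjusted p = 0.898 from limma, exact permutation p = 0.4). It was -0.13 without WT tumor 3 and -0.31 without knockout tumor 1.

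*Bax* and *Bbc3* act in apoptosis. Bax forms the pore in the outer mitochondrial membrane, and Bbc3, known as PUMA, is a BH3-only protein that frees Bax and Bak from their inhibitors. *Bax*, on chromosome 7 from 45461697 to 45466898 on the minus strand, had 1708, 2123 and 1644 normalized counts in the WT group against 1469.9, 1909.6 and 1560.0 in the knockout group. Tumor 2 was again the highest of each group, and knockout tumor 2 lay above 2 of the WT tumors. *Bax* had a log2 fold change of -0.15 (SE 0.20, 95% interval -0.61 to 0.31, adjusted p = 0.933 from limma, exact permutation p = 0.4), with means of 1825 ± 260.0 and 1646 ± 232 (SD, n = 3 per group). The value was -0.22 without WT tumor 3 and -0.07 without knockout tumor 1. Exon bases of *Bax* are shared with *Gm45808* on the same strand.
*Bbc3*, on chromosome 7 from 16308393 to 16318205 on the plus strand, had 436, 467 and 460.2 normalized counts in the WT group against 381, 415 and 427 in the knockout group. The highest knockout value was under the lowest WT value by a small margin, and *Bbc3* was the one gene of the 10 for which the groups did not overlap. Of all tested genes, 10.5% had groups that did not overlap, 5.33% with the knockout tumors lower and 5.18% with them higher, so that 1 of 10 genes is near the background. The means were 454 ± 16.04 and 408 ± 23.6 (SD, n = 3 per group), a fold of 0.897 with a 95% interval of 0.619 to 1.299. *Bbc3* had a log2 fold change of -0.16 (SE 0.23, adjusted p = 0.938 from limma), and the exact permutation test gave p = 0.1, the smallest it can give here. It was -0.15 without WT tumor 3 and -0.11 without knockout tumor 1. The limma error was wider than the spread of these 6 tumors because the fit shares its estimate of variance among genes.

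*Trp53inp1*, on chromosome 4 from 11156431 to 11174379 on the plus strand, encodes a nuclear and autophagy protein that is induced by p53 and strengthens its activity. It had 2051, 2033 and 3849 normalized counts in the WT group against 4536, 3135 and 3912 in the knockout group. WT tumors 1 and 2 were below every knockout tumor, while WT tumor 3 lay among the knockout tumors. This was the largest difference of the 10 genes, with group means of 2645 ± 1043 and 3861 ± 701.5 (SD, n = 3 per group) and a log2 fold change of 0.60 (SE 0.29, 95% interval -0.06 to 1.255). It did not pass adjustment (unadjusted p = 0.0696, adjusted p = 0.881 from limma), and the exact permutation test gave p = 0.2. *Trp53inp1* depended on WT tumor 3 more than on any other tumor. Without it the log2 fold change was 0.90 (adjusted p = 0.768 from limma), without knockout tumor 1 it was 0.47, and without both it was 0.78 (adjusted p = 0.769 from limma). The value of *Trp53inp1* was 1.36 with the adipocyte covariate, 0.98 with the leukocyte covariate and 0.75 with the mean of the proliferation genes as a covariate.

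Counted together, 0 of the 10 genes passed an adjusted p of 0.05 with an absolute log2 fold change of 1, and this limit was passed by 0.102% of all tested genes. At an unadjusted p of 0.05 the count was again 0 of 10, against 5.78% of all tested genes, 3.4% higher and 2.38% lower in knockout tumors. Without WT tumor 3, or without both tumors that stood apart, 1 gene passed the unadjusted limit, *Trp53inp1*. Of all tested genes, 867 and 970 passed it in these settings, in place of 1137. With the adipocyte or the leukocyte covariate 2 of the 10 passed, *Cdkn1a* and *Trp53inp1*, where 1955 and 1123 of all tested genes did. Of the 10 genes, the log2 fold change was above 0 for 4 and below 0 for 6. Its median was -0.11 beside -0.03 over all tested genes. Of the 6 p53 targets, *Ccng1* and *Trp53inp1* had values above 0 and *Cdkn1a*, *Mdm2*, *Bax* and *Bbc3* had values below 0, so the targets did not share a direction. The precision differed between genes. For *Ccng1* and *Bax* the 95% interval of the fold ran from 0.797 to 1.49 and from 0.656 to 1.24, whereas for *Brca1* and *Trp53* it ran from 0.63 to 2.22 and from 0.497 to 1.51, and for *Trp53inp1* it reached 2.39.

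**Figure D3:**
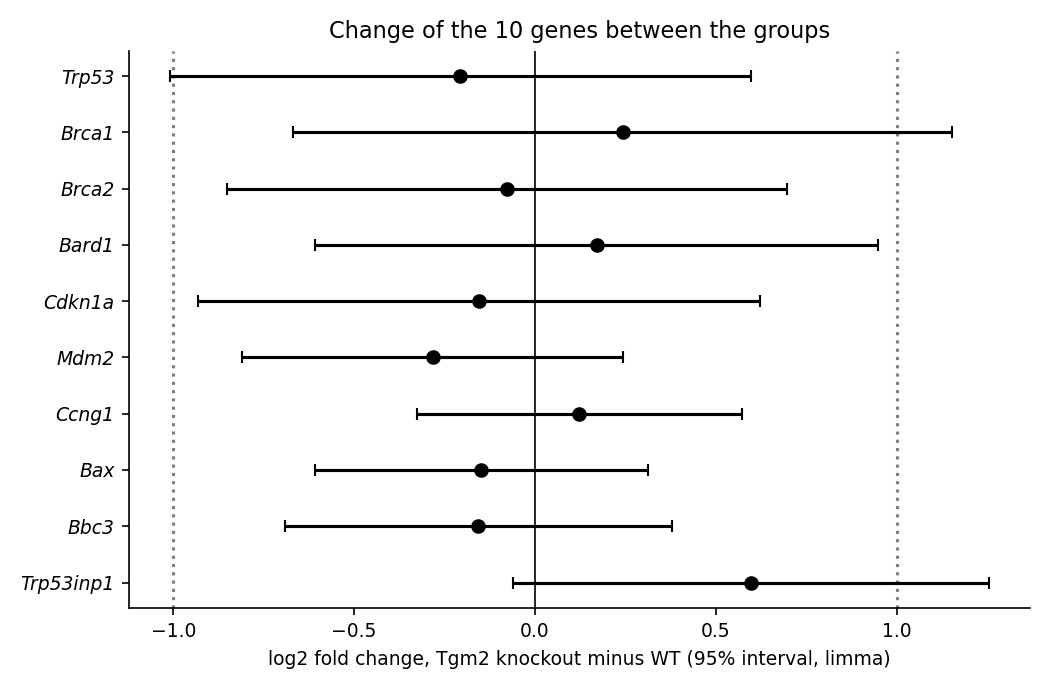
Difference of the 10 genes between *Tgm2* knockout and WT tumors as a log2 fold change (horizontal axis), with points for the limma estimate and bars for its 95% interval, and dotted lines at a log2 fold change of 1 in either direction. All 10 intervals include 0, and that of *Trp53inp1*, from -0.06 to 1.255, has its lower end nearest to 0.

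Levels were compared between genes only per kilobase of the longest coding transcript in GENCODE M21. On this scale *Bax* had the highest mean level, 1578 ± 219 normalized counts per kilobase, followed by *Ccng1* with 1029 ± 135 (SD, n = 6 tumors). *Trp53* followed with 757.5 ± 282, *Trp53inp1* with 602 ± 192, *Cdkn1a* with 575 ± 169 and *Mdm2* with 473 ± 96.8. These 4 neighbours were not separated by their spread, and *Trp53inp1* lay above *Cdkn1a* in 3 of 6 tumors. *Bbc3* had 238 ± 17.3, and the recombination genes stood at the low end, *Bard1* with 62.6 ± 16.3, *Brca1* with 54.8 ± 17.8 and *Brca2* with 42.4 ± 10.9. Ranges over the 6 tumors were apart between *Bax* and *Ccng1*, between *Mdm2* and *Bbc3* and between *Bbc3* and *Bard1*, and they overlapped between all other neighbours in this order. p53 targets with pro-apoptotic products thus stood at both ends of the target genes, *Bax* at the top and *Bbc3* at the bottom. Transcripts shorter than the longest one would raise a gene's level per kilobase, and this was not corrected.

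The patterns over tumors were described for *Trp53*, *Brca1* and *Cdkn1a* by naming, among the 136 genes of 7 lists of related genes, the 3 with the highest Pearson's r over the 6 tumors, with Spearman's rho beside it. Nearest to *Trp53* were *Bcl2l2*, an inhibitor of apoptosis (r = 0.983, rho = 1.0), *Palb2*, which joins Brca1 to Brca2 (r = 0.973, rho = 0.771), and *Mdm4*, the inhibitor of p53 that pairs with Mdm2 (r = 0.973, rho = 0.943). *Mdm4* had 1282, 1218 and 5710.0 normalized counts in the WT group against 3051, 894 and 968 in the knockout group. WT tumor 3 and knockout tumor 1 were thus the highest of their groups for *Mdm4*, as for *Trp53*. Nearest to *Brca1* were *Fancd2*, the protein that is ubiquitinated in the Fanconi anemia pathway (r = 0.956, rho = 0.771), *Abhd4* (r = 0.923, rho = 0.943) and *Mki67*, a marker of dividing cells (r = 0.893, rho = 0.829). Nearest to *Cdkn1a* were *Bok*, a relative of Bax (r = 0.92, rho = 0.943), *Cdkn2d*, another inhibitor of cyclin-dependent kinases (r = 0.905, rho = 0.829), and *Fas*, a death receptor (r = 0.893, rho = 0.943). Without the 2 tumors farthest from each gene's median, r over the 4 left was 0.828 for *Bcl2l2*, 0.866 for *Palb2* and 0.593 for *Mdm4*, ranged from 0.751 to 0.947 for the genes nearest to *Brca1*, and was as low as 0.319 for *Cdkn2d* beside *Cdkn1a*. These values are descriptions over tumors that share 1 table and 1 scaling, chosen as the highest of 136. The mean log2 level of B cell, plasma cell and endothelial markers was lowest in tumor 2 of each group. WT tumor 3 and knockout tumor 1, the highest of their groups for *Trp53*, were each the lowest of their group for the mean log2 level of leukocyte markers (10.57 and 10.99), macrophage markers (11.27 and 11.29) and white adipocyte markers (9.36 and 10.58). They were also the lowest for T cell and fibroblast markers. Each had the highest share of mitochondrial genes in its group (7.0% and 3.59%). For the mean log2 level of the 13 epithelial and mesothelial markers, they were each the highest of their group (12.13 and 11.08). Single markers were not uniform. *Epcam*, *Pax8*, *Cldn3* and *Cldn4* were highest in WT tumor 3, *Krt8* and *Krt19* were highest in WT tumor 2, and *Wt1* was lowest in WT tumor 3. The summed granulosa and oocyte markers were highest in knockout tumor 1. The log2 fold change of *Trp53* was 1.003 with the adipocyte mean as a covariate and 0.33 with the leukocyte mean, in place of -0.21. With the mean of the proliferation genes as a covariate it was -0.0185. The part of the other markers in the *Trp53* values was not tested.

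**Figure D4:**
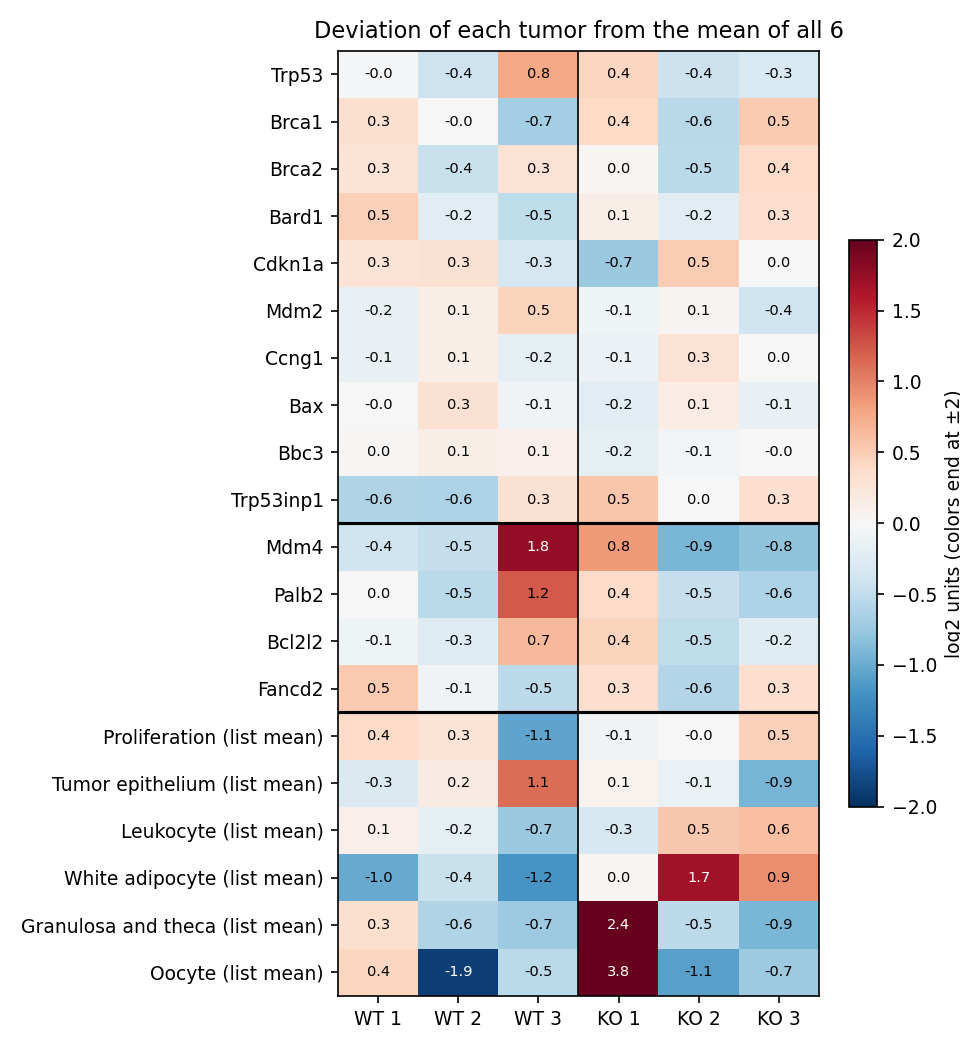
Deviation of each tumor from the mean of all 6 tumors (log2 units, colors ending at 2 in either direction) for the 10 genes, 4 genes with similar patterns, and the mean of 6 gene lists, with the WT tumors to the left of the vertical line and knockout (KO) tumors to the right. WT tumor 3 is high for *Trp53*, *Mdm4* and *Palb2* and low for *Brca1* and the proliferation genes, and knockout tumor 1 is high for the granulosa and oocyte lists.

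The other genes of the pathways were read from the 7 lists. Of their 136 genes, 0 passed the adjusted limit, and 8 had an unadjusted p below 0.05, 3 higher and 5 lower in knockout tumors, or 5.88% beside the background of 5.78%. Without both tumors that stood apart, 4 of the 136 did, and 970 of all tested genes did in place of 1137. The median log2 fold change over the 136 genes was 0.04.

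The list of 35 other p53 targets held 5 of the 8 genes, 2 of them higher and 3 lower, or 14.3% of the list beside 5.78% of all tested genes, and its median log2 fold change was -0.04. *Perp*, a membrane protein of cell junctions and an apoptosis effector of p53, had 1738, 2395 and 2504 normalized counts in the WT group against 1163, 1695 and 1344 in the knockout group. The groups did not overlap, with knockout lower, and *Perp* had a log2 fold change of -0.66 (SE 0.23, adjusted p = 0.776 from limma). *Fdxr*, a mitochondrial reductase, had 1549.8, 1779 and 1673 in WT and 3650.3, 2096 and 2249 in knockout tumors, with a log2 fold change of 0.63. *Sesn1*, a sestrin that restrains the growth kinase mTORC1, had 2111, 2429.8 and 1992 in WT and 2557, 3145 and 3514 in knockout tumors, with a log2 fold change of 0.49. For both genes the groups did not overlap, with knockout higher. *Epha2*, a receptor tyrosine kinase, and *Gadd45a*, a damage-induced stress protein, were named after their values were seen and had log2 fold changes of -0.52 and -0.56. None of these 5 genes passed adjustment. The most abundant genes of the list, *Abhd4* and *Ddit4*, an inhibitor of mTORC1, had unadjusted p above 0.05. Genes with groups that did not overlap numbered 3 of 35 with knockout above and 5 of 35 with knockout below, where 5.18% and 5.33% of all tested genes did so.

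Of the 20 regulators and relatives of p53, 1 had an unadjusted p below 0.05, *Trp73*, and the median log2 fold change was 0.09. *Trp73* encodes p73, which binds the same element as p53 and is also known as a factor of multiciliated cells. It was at 0, 5.71 and 2.05 normalized counts in the WT group against 90.8, 86.0 and 28.5 in the knockout group. WT tumors held a few reads at most, and all 3 knockout tumors lay above them. The log2 fold change of *Trp73* was 4.50 (SE 0.89), the largest in the 7 lists, and it did not pass adjustment (adjusted p = 0.302 from limma). It was 4.58 without WT tumor 3, 4.21 without knockout tumor 1 and 4.29 without both, and it was 2.54 with a pseudocount of 10, since the fold of so low a gene depends on the pseudocount. Exon bases of *Trp73* are shared with *Trp73os* on the opposite strand, so reads of the pair may not be told apart.
Genes of multiciliated and oviductal cells were examined beside it, chosen after values were seen. *Foxj1*, the factor of motile cilia, had 20.8, 228 and 83.1 normalized counts in the WT group against 1135, 1938 and 31.2 in the knockout group. *Ovgp1*, the oviductal glycoprotein, had 184, 6552 and 9244 in WT and 37108, 55944 and 91.0 in knockout tumors. Both were high in knockout tumors 1 and 2, where *Trp73* was highest, and low in knockout tumor 3, where *Trp73* was still above every WT tumor. Their part in the *Trp73* values was not tested. *Hipk2*, a kinase that phosphorylates p53, and *Trp53bp1*, which binds damaged chromatin, had the next smallest p of the list, with unadjusted p of 0.0706 and 0.137 from limma. *Trp53inp2* and *Usp7*, a deubiquitinase of Mdm2 and p53, were the most abundant of the list.

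In homologous recombination, 1 of 29 genes had an unadjusted p below 0.05, and the median log2 fold change was -0.07. The gene was *Abraxas1*, the scaffold of the complex that brings Brca1 to ubiquitin at DNA breaks. It had 359.7, 366 and 442 normalized counts in the WT group against 262, 258 and 184 in the knockout group, and the groups did not overlap. *Abraxas1* had a log2 fold change of -0.74 (SE 0.29, adjusted p = 0.819 from limma). *Rad52*, an annealing protein, followed with an unadjusted p of 0.134 from limma, and *Sfr1* and *Swi5*, which act together as a complex in recombination, were the most abundant. The Fanconi anemia pathway, which repairs crosslinks between DNA strands and feeds into recombination, had 1 of 14 genes at an unadjusted p below 0.05 and a median log2 fold change of 0.03. *Fance*, a subunit of its core complex, had 818, 791 and 1143 normalized counts in the WT group against 612, 590.5 and 590.5 in the knockout group. The groups did not overlap, and the log2 fold change of *Fance* was -0.60 (SE 0.23, adjusted p = 0.819 from limma). *Fancg* and *Fancf*, 2 other core complex genes, followed with unadjusted p of 0.242 and 0.259 from limma, and *Faap100* and *Slx4*, a scaffold of DNA nucleases, were the most abundant.
The proliferation list had 0 of 20 genes at an unadjusted p below 0.05, with 18 values above 0 and 2 below and a median log2 fold change of 0.30. The mitotic kinases *Plk1* and *Aurka* and the ribonucleotide reductase subunit *Rrm2* had the smallest unadjusted p of the list, 0.216, 0.252 and 0.336 from limma. The direction of this list turned without WT tumor 3, where its median was -0.17, without both tumors that stood apart (-0.08), and with the adipocyte (-0.25) and the leukocyte covariate (-0.21).

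**Figure D5:**
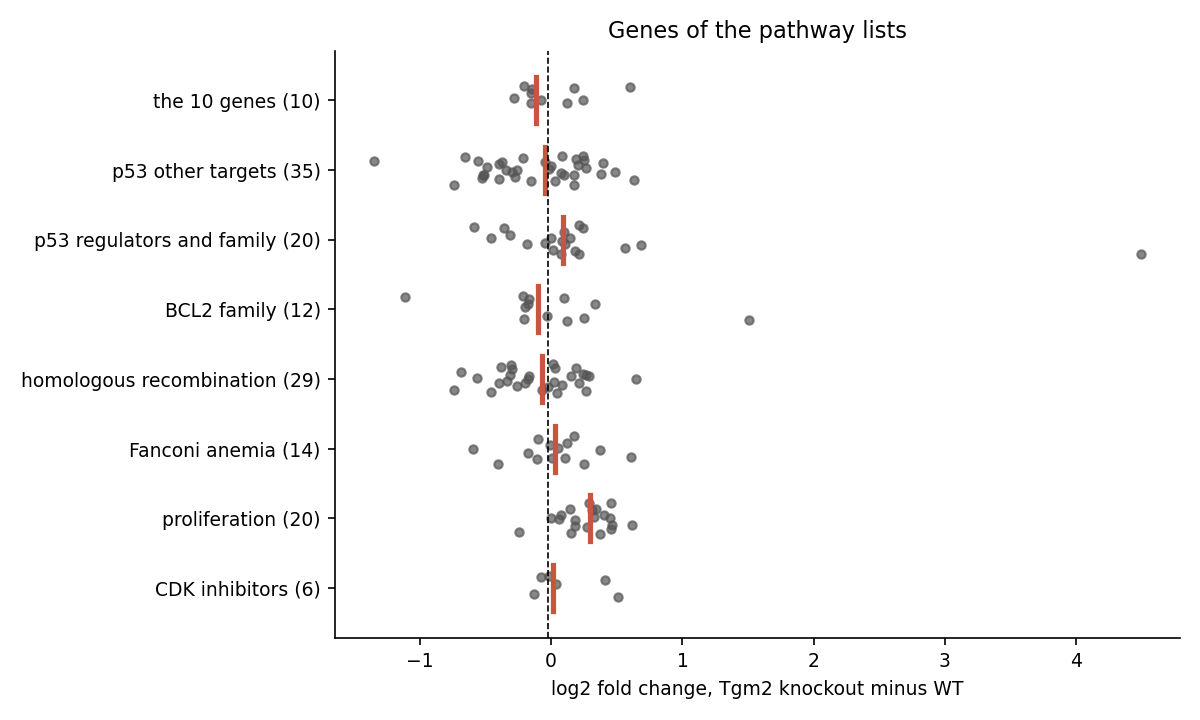
The log2 fold change between *Tgm2* knockout and WT tumors (horizontal axis) of each gene in the set of 10 genes and in 7 lists of related genes, 1 point per gene, with the number of genes in parentheses, a red bar at each median and a dashed line at the median of all tested genes. The medians lie between -0.11 and 0.30, and the single point at 4.50 is *Trp73*.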

How the data were processed

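RNA from 3 primary tumors of WT and 3 of *Tgm2* knockout mice was compared, with groups and replicate numbers taken from the sample labels. The authors quantified transcripts with kallisto (0.46.2 in the submitters' processing notes, which name GRCm38), assigned them to genes with biomaRt, dropped lowly expressed genes and scaled the values with the size factors of DESeq2. The annotation release and the limit for low expression are not given in the sources used here. The deposited values are a signal in units of normalized counts, as made by the authors. The table is labelled TPM, for which the tests had been written, but its columns sum to between 32316613 and 37717165. The log2 test still applied. Whole reads were recoverable for genes with a single transcript and not for the others, so count models were not used. Of the low values used for this, 96.6% to 99.2% per tumor lay within 0.1 read of a whole read.

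Values were taken as log2(value + 1), a pseudocount that understates the change of low genes. Genes reaching 1 in 3 or more tumors were fitted with limma 3.58.1 in R 4.3.3, with a mean-variance trend and no covariate, and two-sided p-values were adjusted over all 19667 of them (Benjamini-Hochberg). A gene was called at an adjusted p of 0.05 when its log2 fold change exceeded 1 in size. Exact permutation tests were two-sided and run in Python 3.11.15. Depth was close between tumors, with 1 read worth 0.938 to 1.09 normalized counts. On simulated data with 200 changed genes, 0% were recovered at a log2 fold change of 1 (of 19445 genes), 64.5% at 2 and 90.5% at 4 (of 19444 genes each). A recovered gene had to pass both limits of a call, and a simulated log2 fold change of 1 lies on the fold limit (median estimate 0.99). The changed genes were drawn from genes of higher level, not from low genes.

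The 10 genes, 7 pathway lists and 13 marker lists were chosen with earlier results of these data known. The text names the 10 genes, the 2 most abundant genes (by value, not per length) and the 3 with the smallest p of each pathway list, the most abundant gene and the genes at 0 of each marker list, and the 3 genes most like *Trp53*, *Brca1* and *Cdkn1a*. Of these genes, 1 is not reported here. Any other gene was chosen after its values were seen. Positions come from GENCODE M21 on GRCm38. The 19 alternatives took another pseudocount, filter or scaling, changed the replicate block, the variance trend, the tumor weights or the covariates, or left out tumors, and the one without both WT tumor 3 and knockout tumor 1 was chosen after seeing the data.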

Additional observations from a re-analysis of the deposited data

How the results depend on the processing

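Over 19 alternative settings, the 10 genes gave 190 log2 fold changes, of which 175 kept their direction and 15 did not. None of the 10 genes passed the limits in any of them, and their lowest adjusted p from limma was 0.478. The reversals were as follows. With the mean of the white adipocyte markers as a covariate, *Trp53* was 1.003, *Brca2* 0.72 and *Ccng1* -0.37, and with the mean of the leukocyte markers *Trp53* was 0.33 and *Bard1* -0.051. Without both WT tumor 3 and knockout tumor 1, a setting chosen after seeing the data, *Brca1* was -0.17, *Brca2* 0.0096 and *Bard1* -0.068. Leaving out each tumor in turn gave -0.47 to 0.13 for *Trp53*, -0.034 to 0.58 for *Brca1*, -0.32 to 0.17 for *Brca2*, -0.042 to 0.45 for *Bard1* and -0.45 to 0.18 for *Cdkn1a*. The positive end was reached without WT tumor 3 for *Trp53*, without knockout tumor 2 for *Brca2* and without knockout tumor 1 for *Cdkn1a*. *Brca2* also turned positive without WT tumor 1 and without WT tumor 3. With single tumors left out, *Ccng1* was 0.0092 to 0.22, *Mdm2* -0.43 to -0.13 and *Bax* -0.26 to -0.034, with directions kept. So were those of *Bbc3*, at -0.19 to -0.11, and *Trp53inp1*, at 0.44 to 0.90. The adipocyte covariate gave 0.88 for *Brca1* and -0.64 for *Bax*, without reversal. *Mdm2* was -0.087 with the leukocyte covariate, and *Brca1* was 0.068 with the proliferation covariate. Relative to proliferation genes, the median of the list in place of its mean gave 0.16 for *Brca1* and 0.086 for *Bard1*, and leaving out tumors gave -0.26 to 0.25 for *Brca1*, -0.78 to 0.24 for *Brca2* and -0.36 to 0.15 for *Bard1*. The causes were not tested, and the adipocyte mean did not overlap between the groups, so that in fits with this covariate the adipocyte level and the genotype cannot be told apart.

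At an unadjusted p of 0.05, 1 of the 10 genes passed with sample weights, with a proliferation covariate and without the 2 tumors that stood apart, 2 passed with the adipocyte covariate and 2 with the leukocyte covariate (*Cdkn1a* and *Trp53inp1*), and 0 to 1 without single tumors. The largest size was that of *Cdkn1a* with the adipocyte covariate, -1.47 (adjusted p = 0.478 from limma). Among all tested genes, those higher past the limits numbered 4 with no variance trend, 0 with the adipocyte covariate, 8 with the leukocyte covariate, 12 without the 2 tumors and 2 to 14 without single tumors, and those lower numbered 1 without the 2 tumors and 0 to 1 without single tumors. At an unadjusted p of 0.05, 1137 of all tested genes passed both in the main fit and with sample weights. The count was 1218 with the proliferation, 1955 with the adipocyte and 1123 with the leukocyte covariate. It was 1290 with no variance trend, 970 without the 2 tumors and 867 to 1485 without single tumors. Of the 136 pathway genes, 8 passed in the main fit, 5 with no variance trend, 13 with the adipocyte covariate and 4 with the leukocyte covariate. Without the 2 tumors 4 of them passed, and without single tumors 4 to 7. The list medians moved with the adipocyte covariate to 0.34 for p53 regulators, -0.30 for the BCL2 family, -0.23 for homologous recombination, 0.26 for Fanconi anemia, -0.55 for CDK inhibitors and -0.25 for proliferation genes, whose median was -0.21 with the leukocyte covariate. The median of the other p53 targets was -0.18 with the leukocyte covariate and -0.20 to -0.031 without single tumors. That of the BCL2 family was 0.049 without the 2 tumors and -0.10 to 0.045 without single tumors. Without single tumors the median was -0.16 to 0.0097 for homologous recombination, -0.082 to 0.10 for Fanconi anemia and -0.076 to 0.23 for CDK inhibitors. It was 0.035 to 0.18 for p53 regulators and -0.17 to 0.63 for proliferation genes.

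The replicate numbers are shared by the groups, but deviations of same-numbered tumors correlated at -0.196, 0.284 and -0.307, so the numbers were not taken to pair the tumors. With the replicate number as a block, 5 genes were higher past the limits in place of 20, and 0 of the 10 genes passed. Tumors of the same number did not correlate best with each other for numbers 1 and 3. With 3 tumors per group, the simulated data gave no recovery at a log2 fold change of 1, and low genes such as *Trp73* in WT tumors rest on a few reads.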

Other observations

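The cell death and cell cycle genes around the p53 targets were read from the remaining pathway lists. In the BCL2 family, which decides whether Bax and Bak open the mitochondrial membrane, 0 of 12 genes had an unadjusted p below 0.05 from limma, and the median log2 fold change was -0.10. The smallest unadjusted p of this family were those of *Bik*, *Hrk* and *Bcl2l1*. *Bik*, a BH3-only gene, had 102, 108 and 265 normalized counts in the WT group against 76.6, 66.2 and 55.1 in the knockout group. The groups did not overlap, and the log2 fold change of *Bik* was -1.12 (SE 0.50, adjusted p = 0.879 from limma). *Hrk*, another BH3-only gene, was near the limit of detection, with 1.48 to 4.09 normalized counts in WT and 5.90 to 18.5 in knockout tumors. *Bcl2l1*, the gene of Bcl-xL, had 2654 to 3319 in WT and 3317 to 4715 in knockout tumors. *Mcl1* and *Bok* were the most abundant of the family. The 6 other inhibitors of cyclin-dependent kinases had 0 genes at an unadjusted p below 0.05 from limma and a median log2 fold change of 0.01. The smallest unadjusted p of these were those of *Cdkn2c*, *Cdkn2b* and *Cdkn2d*, and *Cdkn1b*, the gene of p27, was the most abundant. *Cdkn2c*, the gene of p18, had 2072, 1962 and 1182 normalized counts in the WT group against 1879, 2534 and 2905 in the knockout group, with overlapping groups.

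*Ddb2*, which recognizes ultraviolet damage, is known as a p53 target from human cells, and whether this holds in the mouse was not tested. It is counted here among the 35 other p53 targets and was named after its values were seen. It had 189, 270.3 and 947 normalized counts in the WT group against 251, 123 and 93.3 in the knockout group. WT tumor 3, the tumor with the most *Trp53*, *Mdm2* and *Mdm4* RNA, was also the highest for *Ddb2*, whereas *Cdkn1a* was lowest among the WT tumors there.

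The makeup of the tumors was described with 13 marker lists. Median log2 fold changes were -0.43 for epithelial and mesothelial tumor markers (most abundant *Wt1*), 0.50 for leukocytes (*Laptm5*), 0.45 for macrophages (*C1qa*), 0.71 for T cells (*Thy1*), 1.01 for B cells (*Cd79a*), 2.44 for plasma cells (*Jchain*) and 1.64 for white adipocytes (*Lpl*). They were 0.60 for fibroblasts (*Col3a1*), 0.50 for endothelium (*Pecam1*), 0.67 for granulosa and theca cells (*Star*), 0.89 for oocytes (*Zp2*), -1.39 for gut epithelium (*Apoa4*) and -0.48 for skeletal muscle (*Acta1*). Past the adjusted limits were 1 of 8 B cell, 2 of 8 plasma cell and 1 of 12 white adipocyte markers, all higher in knockout tumors, where 0.102% of all tested genes passed. In place of 20 genes over the whole table, 0 passed with the adipocyte covariate, 4 with no variance trend, 5 with the replicate block and 2 without WT tumor 2 (limma), and the markers kept were not counted. Of the oocyte, gut and muscle markers, *Zp1*, *Zp2*, *Zp3*, *Oosp1*, *Fabp2*, *Apoa4* and *Myh4* were at 0 in at least 1 tumor. The summed level of the white adipocyte markers was 43373, 56412 and 33039 normalized counts in the WT group against 46978, 167555 and 98517 in the knockout group. By these sums knockout tumor 1 lay among the WT tumors, but the mean log2 level of the list was 10.58 in knockout tumor 1 against 9.36 to 10.10 in WT tumors, above each of them. The sums of the plasma cell markers were 15741, 17689.6 and 12874 in WT and 59559, 82167 and 86368 in knockout tumors. Of these lists, only those of leukocytes and white adipocytes were used as covariates, and the part of the other lists in the values of the 10 genes was not tested.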
